A study of Mus musculus with 18 samples.

Results

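Messenger RNAs of the polysome and RNP fractions were compared in testes of 22-day-old mice. The comparison used 6 of the series' 18 arrays, chosen by their labels, with 3 arrays of the RNP fraction and 3 of the polysome fraction. RNPs are slowly sedimenting particles of RNA and protein, while a polysome is a messenger RNA loaded with several ribosomes. The fractions were set by place in a gradient, and storage of the RNAs was not tested. The mice were of the outbred strain CD1, with no treatment or allele named, and the other 12 arrays came from 17-day-old and adult testes. Cytoplasmic extract was spun through a 10 to 30% sucrose gradient collected as 17 fractions, of which fractions 2 to 8 gave the RNP sample and 11 to 17 the polysome sample. The labels call the replicates biological but do not say how many animals each sample held. The study asked which transcripts change their place between RNPs and polysomes as the testis develops.

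The first wave of spermatogenesis runs through the young testis in step with age, so that meiotic cells appear first and haploid spermatids later. Spermatids stop transcription when their chromatin is packed with protamines. Many of their messenger RNAs are therefore made early, held in RNPs, and moved onto polysomes days later, when the protein is needed.

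Each array gave 1 intensity per probe set, and all arrays had been scaled to a common mean, so differences between fractions in total RNA were removed. A higher value in a fraction is thus relative to the other transcripts of that fraction. In whole testis, fewer cells of a type and less RNA per cell cannot be told apart. Differences are RNP minus polysome on the log2 scale (value plus a pseudocount of 15.4), with the standard error (SE) of the limma model and n = 3 arrays per group. A difference was called at an adjusted p under 0.05. Array values below are in the order of replicates 1, 2 and 3.

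Of 14066 probe sets tested, 1955 were higher in RNPs (13.9%) and 3355 higher on polysomes (23.9%). Differences of at least 2-fold numbered 1147 in RNPs and 2186 on polysomes, and 146 and 288 reached 4-fold. The 3 RNP arrays lay above the 3 polysome arrays for 3118 probe sets (22.2%), and below them for 4768 (33.9%). With 1 probe set for each of 8713 genes, 1325 genes were called in RNPs (15.2%) and 2013 on polysomes (23.1%). The median difference was -0.13 over probe sets and -0.09 over genes. The split moved with the scaling, since other scalings shifted the median over probe sets to between 0.03 and 0.10. Median centring gave 2970 in RNPs and 2296 on polysomes, quantile normalization within each fraction 2930 and 2323, and quantile normalization of all arrays 2439 and 2565.

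Replicates of a group correlated at 0.928 to 0.972 across tested probe sets, and some arrays stood apart for particular genes. Both arrays of replicate 2 were low for late spermatid transcripts. The RNP array was the lowest of its group for 7 of 9 sperm chromatin genes and 20 of 27 sperm tail genes, and the polysome array for 8 and 17. Over all genes the share was 29.9% in either fraction. The polysome array of replicate 3 was the lowest for 38 of 47 genes of the secretory route, 16 of 20 acrosome genes and 18 of 20 peritubular genes, against 38.6% of all genes. Polysome array 1 was the lowest for 27 of 45 ribosomal protein genes and 37 of 71 respiratory chain genes, against 31.4% of all genes. RNP array 1 was the lowest for 24 of the 45 ribosomal protein genes, against 34.9%. Markers that define spermatocytes (Sycp1 and Sycp3), spermatids (Acr, Prm1 and Tnp1), Sertoli cells (Sox9 and Clu), Leydig cells (Cyp17a1) and peritubular cells (Acta2, smooth muscle actin) passed the intensity filter (a value above 51.6 on at least 3 of the 18 arrays). Ptprc, Pecam1 and Hba-a1, markers of white blood cells, vessels and red blood cells, and the smooth muscle gene Myh11 did not. Acta2 was at 407, 607 and 309.4 in RNPs and 1482, 1522.5 and 927 on polysomes (-1.56 ± 0.36, adjusted p = 0.00244). The spermatogonial markers Kit (27.2, 57.5 and 42.6 in RNPs and 89.4, 106 and 32.5 on polysomes) and Zbtb16 (36.0, 10.4 and 51.9 in RNPs and 42.3, 66.4 and 99.3 on polysomes) were dim.

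**Figure D1:**
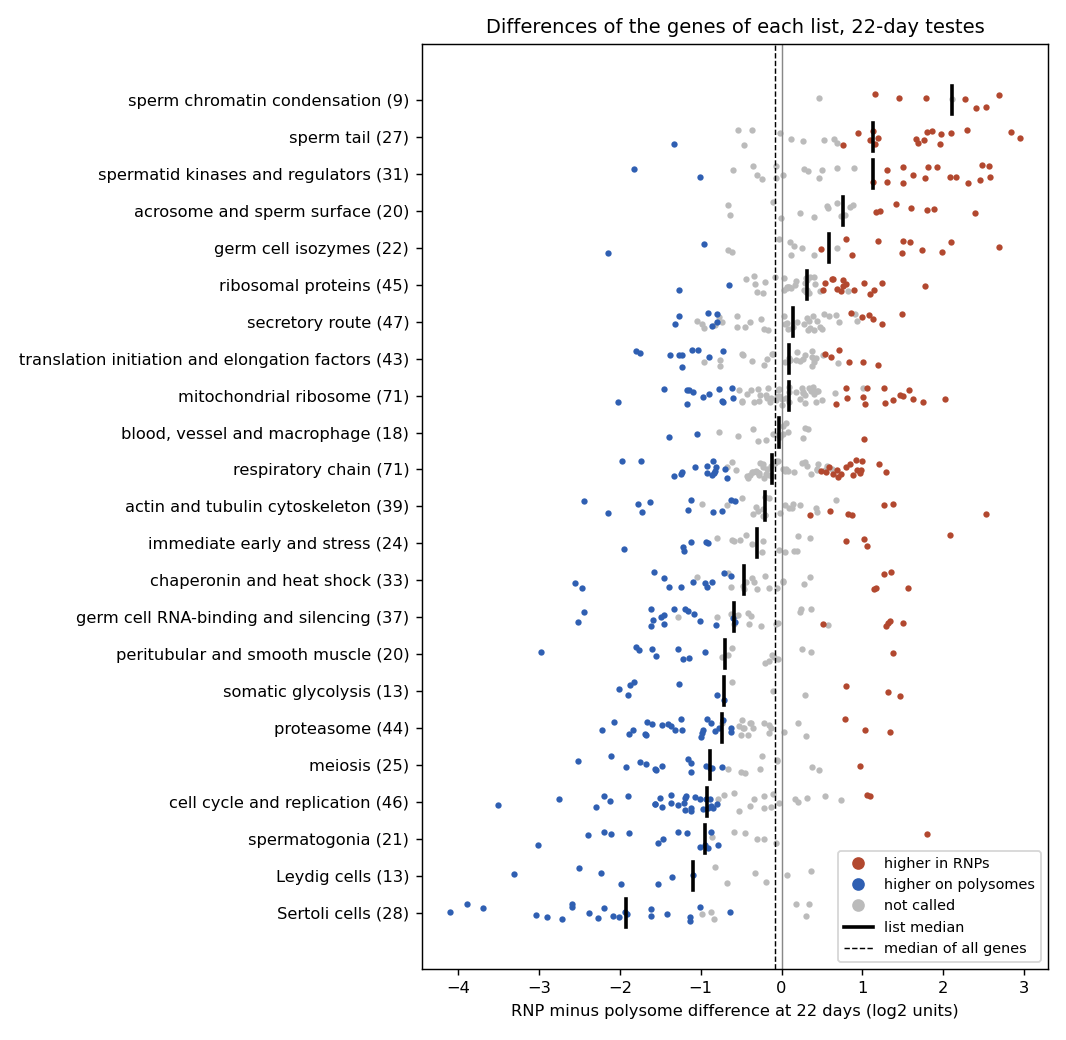
Each point is a tested gene of a list, placed by its RNP minus polysome difference at 22 days in log2 units (x axis); lists with the number of tested genes are on the y axis in order of their median (black bars). Red points were called higher in RNPs, blue points higher on polysomes and grey points were not called, and the dashed line is the median of all genes. Lists of late spermatid proteins are at the top with medians up to 2.10, and Sertoli cell genes at the bottom with a median of -1.92.

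Transcripts for the proteins that compact sperm chromatin were on the RNP side. Of 11 listed genes 9 were tested, and 7 were called higher in RNPs and 0 higher on polysomes, with a median difference of 2.10 against -0.09 over all genes. Tnp1, which encodes a transition protein that replaces histones, was at 1660.3, 76.1 and 727 in RNPs and 266, 8.5 and 47.4 on polysomes. Its difference was 2.69 ± 0.78 SE (adjusted p = 0.0112). Hils1, a linker histone of spermatids, was at 2359, 460.2 and 1426 in RNPs and 427, 86.5 and 174 on polysomes, and the groups did not overlap. This was a difference of 2.52 ± 0.47 SE (adjusted p = 0.000495). Prm2, a protamine that wraps sperm DNA, was at 2073, 90.5 and 916 in RNPs and 298, 22.9 and 99.5 on polysomes, with a difference of 2.41 ± 0.79 (adjusted p = 0.0218). Prm1, the other protamine, was at 2959.8, 121 and 962 in RNPs and 432, 36.6 and 139 on polysomes, with a difference of 2.26 ± 0.80 (adjusted p = 0.0328). For Tnp1, Prm1 and Prm2 the RNP array of replicate 2 lay below the polysome array of replicate 1, so the groups overlapped, although each replicate number had the higher value in RNPs.

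Calls of the sperm chromatin list depended on single arrays and other settings. Those of Tnp1, Prm1 and Prm2 ended without polysome array 2 (adjusted p from 0.0811 to 0.188), RNP array 1 (0.088 to 0.229) or RNP array 3 (0.0528 to 0.104), that of Prm1 also without polysome array 3 (0.0649), with a pseudocount of 1 (0.0519) and with no filter (0.0593), and all 3 with only the compared arrays (0.0643 to 0.102). Leaving out 1 of the 22-day arrays left between 2 and 7 of the 9 genes called. The count was 2 without polysome array 2 or without RNP array 1, and 3 without RNP array 3. With the replicate number as a block 8 were called, among them Tnp2, the second transition protein, at 1483, 30.1 and 926 in RNPs and 264, 15.9 and 76.7 on polysomes. Tnp2 missed the threshold without the block (2.10 ± 0.87, adjusted p = 0.0647) and passed with it (adjusted p = 0.000281). Tnp2 also passed without polysome array 1 (adjusted p = 0.0236) and without RNP array 2 (9.57e-05). The mean log2 level of the 9 genes was 9.78, 7.02 and 9.02 in RNPs and 7.74, 5.67 and 6.80 on polysomes. RNPs had the higher value for 9, 9 and 8 of the 9 genes in replicates 1, 2 and 3.

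Sperm tail genes followed the same side. Of 38 listed, 27 were tested, with 17 higher in RNPs, 1 higher on polysomes and a median of 1.14. The shares over all genes were 15.2% in RNPs and 23.1% on polysomes. Odf1, a core protein of the outer dense fibres, was at 1664, 509.5 and 1378 in RNPs and 246, 65.6 and 110.3 on polysomes, 7.73-fold higher in RNPs with no overlap (adjusted p = 4.6e-05). Spata19, a mitochondrial protein of spermatids, was at 1271, 310.2 and 1085 in RNPs and 165, 67.8 and 68.6 on polysomes (2.84 ± 0.42 SE, adjusted p = 6.44e-05). For both genes the RNP array of replicate 2 was the lowest of its group, yet above every polysome array. Odf3, another fibre-associated protein, was at 886, 194 and 499 in RNPs and 199.5, 8.2 and 146 on polysomes (2.30 ± 0.57, adjusted p = 0.00437), with overlap between RNP array 2 and polysome array 1. The fibrous sheath anchor Akap4 (1.80 ± 0.44) and the mitochondrial capsule gene Smcp (1.97 ± 0.33) were also higher in RNPs, without overlap. The exception was Dnah8, a dynein heavy chain of the axoneme, at 1205, 2009 and 1581 in RNPs and 4408, 3786 and 3696 on polysomes (-1.33 ± 0.27, adjusted p = 0.0011). Leaving out 1 array left 15 to 18 sperm tail genes called in RNPs.

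**Figure D2:**
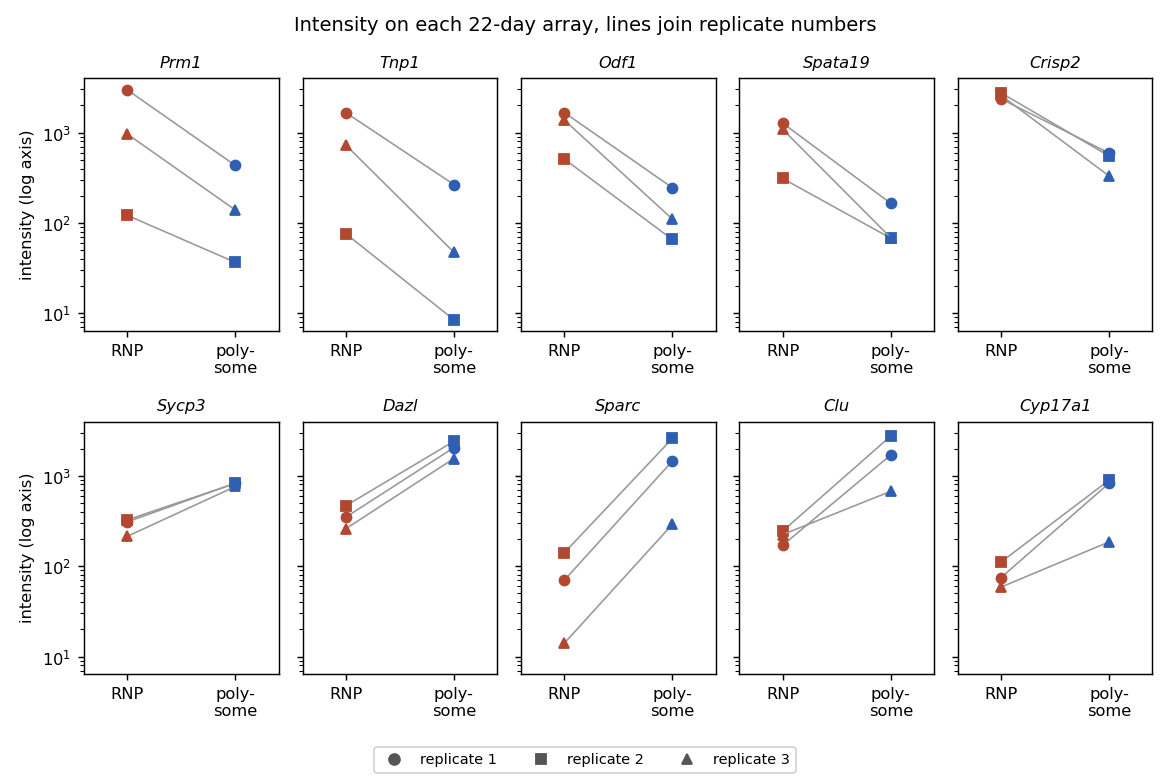
Intensity (y axis, log scale) of 10 genes on each of the 6 arrays of 22-day testes, with RNP arrays in red and polysome arrays in blue, symbols for replicates 1 to 3 and lines joining the same replicate number. In the upper row every line falls from RNP to polysome while replicate 2 lies lowest for Prm1, Tnp1 and Odf1. In the lower row every line rises, and polysome replicate 3 lies lowest for Sparc, Clu and Cyp17a1.

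Acrosome and sperm surface genes were called in RNPs or not at all. The acrosome is the secretory vesicle at the sperm head, whose proteins enter the endoplasmic reticulum as they are made. Of 32 listed genes, 20 were tested, 7 were higher in RNPs, 0 higher on polysomes and 13 not called (median 0.77). The shares over all genes were 15.2% in RNPs and 23.1% on polysomes. The 7 include Dnajb13 (1.42 ± 0.24, adjusted p = 0.000205), a DnaJ family gene whose place at the acrosome or sperm surface was not checked. Crisp2, a cysteine-rich acrosomal protein, was at 2355, 2745 and 2574 in RNPs and 591, 549 and 329.6 on polysomes (2.39 ± 0.45 SE, adjusted p = 0.000475). Adam3 and Adam5, membrane proteins of the sperm surface, differed by 1.80 ± 0.47 and 1.89 ± 0.58, and Tmco5 by 1.60 ± 0.50 (adjusted p = 0.0163). The call of Tmco5 ended without polysome array 2 (adjusted p = 0.0562) or 3 (0.0528), or without RNP array 1 (0.0579) or 3 (0.0568). Acr, the protease acrosin, was at 1393, 1092 and 1499 in RNPs and 594, 626 and 463 on polysomes, with no overlap and a smaller difference (1.22 ± 0.27, adjusted p = 0.00174). With replicate pairs as a block, 11 acrosome genes were called in RNPs.

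Several acrosome genes that were not called had high polysome values on arrays 1 and 2 and a low one on array 3. The following were picked after their values were seen. Tex101, a glycoprotein of the germ cell surface, was at 1398, 1287 and 1377 in RNPs and 1077, 1519 and 280.2 on polysomes (0.79 ± 0.48, adjusted p = 0.209). Dkkl1, an acrosomal glycoprotein, was at 2383, 2187 and 2697 in RNPs and 1943, 1932 and 575 on polysomes (0.89 ± 0.46, adjusted p = 0.134). For the whole list, the median RNP minus polysome difference within a replicate number was 0.33, 0.33 and 1.31, and the genes higher in RNPs numbered 14, 13 and 20 of 20. The third pair had the most genes higher in RNPs. Calls in RNPs numbered 5 without polysome array 2 or 3 or RNP array 1 or 3, and 6 or 7 without each other array.

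Called kinases and regulators of spermatids were mostly in RNPs, with 16 of 31 tested genes higher there and 2 higher on polysomes (41 listed, median 1.13). All genes gave 15.2% in RNPs and 23.1% on polysomes. Ube2j1, a ubiquitin-conjugating enzyme, was at 1162, 726 and 775 in RNPs and 177, 102 and 130.4 on polysomes, 5.94-fold higher in RNPs (adjusted p = 1.36e-06). Spata6, needed for the connecting piece of the sperm, differed by 2.58 ± 0.47, Gsg1 by 2.48 ± 0.34 and the testis-specific kinase Tssk2 by 2.46 ± 0.34. Tssk2 was at 858, 273 and 568 in RNPs and 103, 56.7 and 87.9 on polysomes, again lowest in replicate 2. On polysomes were Taf7l, a germ cell subunit of the general transcription machinery (74.2, 97.9 and 60.7 in RNPs and 315, 391 and 244 on polysomes, -1.83 ± 0.34), and Tex14, needed for the bridges between germ cells (-1.01 ± 0.31, adjusted p = 0.0155). Tex14 was no longer called without polysome array 1 (adjusted p = 0.0634) or RNP array 3 (0.068) and under median centring (0.0646). Crem, the transcription factor that switches on spermatid genes, was at 80.2, 76.0 and 79.3 in RNPs and 80.5, 91.4 and 119 on polysomes and was not called (-0.24 ± 0.25, adjusted p = 0.479).

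Enzymes of glycolysis were found on both sides, and some related isozymes took opposite ones. Spermatids replace several glycolytic enzymes by forms made from their own genes. Of 22 tested germ cell isozymes (28 listed), 11 were higher in RNPs and 2 on polysomes (median 0.59). The shares over all genes were 15.2% in RNPs and 23.1% on polysomes. This list is not confined to glycolysis. Its 2 polysome calls were Pdha2 and the tubulin Tubb3, and Slc2a5, Ppp3cc, Ppp1cc, Hspa1l and Dnajb8 were among its RNP calls. The RNP count was 7 without polysome array 2 or RNP array 3, and with replicate pairs as a block the counts were 13 and 4. Of 13 tested enzymes of somatic glycolysis (16 listed), 3 were higher in RNPs and 7 on polysomes (median -0.71). The lists are not separate, since Hk1 and Pfkp are on both and Hk1 is an RNP call in each. Ldhb of the somatic list is also on the Sertoli list, and Gapdhs is an RNP call of both the germ cell isozyme and the sperm tail lists. Pgk2, the germ cell phosphoglycerate kinase, was at 1276, 1170.4 and 1246 in RNPs and 242, 142 and 163 on polysomes (2.69 ± 0.33 SE, adjusted p = 1.36e-05). Pgk1, its X-linked counterpart, was at 94.3, 141 and 148 in RNPs and 574, 488 and 406 on polysomes (-1.83 ± 0.28, adjusted p = 8.35e-05). Neither gene's groups overlapped, and they were apart in opposite directions.

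The 3 lactate dehydrogenase subunits took 3 different places. Ldha was at 4394, 3914 and 4524 in RNPs and 1582, 1173 and 1934 on polysomes, higher in RNPs (1.47 ± 0.21, adjusted p = 4.92e-05). Ldhb was at 254, 266 and 209 in RNPs and 1104, 1147 and 831 on polysomes, higher on polysomes (-2.01 ± 0.28, adjusted p = 4.2e-05), and a second probe set of it differed by -3.41 ± 0.39. Ldhc, the subunit confined to germ cells, was at 9075, 7949 and 8112 in RNPs and 7321, 7461 and 8427 on polysomes, and its groups overlapped (0.12 ± 0.11, adjusted p = 0.435). It passed under median centring (0.39, adjusted p = 0.0283) and with quantile normalization within each fraction (0.52, adjusted p = 0.000324), and was at 0.00 under quantile normalization.

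Further along the pathway, Gapdhs, the sperm form of glyceraldehyde phosphate dehydrogenase, was at 1341, 411 and 1117 in RNPs and 247, 129 and 204 on polysomes (2.10 ± 0.36, adjusted p = 0.000233). The sperm aldolases Aldoart2 (1.99 ± 0.35) and Aldoart1 (1.74 ± 0.34) were in RNPs as well. Among enzymes shared with other tissues, Tpi1 (1.31 ± 0.23) and Hk1 (0.80 ± 0.25, adjusted p = 0.0172) were in RNPs, while Pgam1 (-1.90 ± 0.25) and Pkm (-1.88 ± 0.25) were on polysomes. The Hk1 call ended without polysome array 2 (adjusted p = 0.0867), RNP array 1 (0.0834) or RNP array 3 (0.0667) and under quantile normalization (0.0809). Gpx4, the selenium-dependent peroxidase of sperm mitochondria, was at 4613, 3781 and 3130.1 in RNPs and 1939, 1751 and 1809.6 on polysomes (1.04 ± 0.30, adjusted p = 0.0105), and was no longer called without RNP array 1 (0.0551) and under quantile normalization (0.0582). Sod1, the cytoplasmic superoxide dismutase, was at 670.4, 454 and 858 in RNPs and 692, 600.5 and 1016 on polysomes and was not called (-0.23 ± 0.26, adjusted p = 0.53). The mitochondrial pyruvate dehydrogenase subunit Pdha2, also a germ cell form, was at 1416, 908 and 1044 in RNPs and 2303, 2146 and 2048 on polysomes and higher on polysomes (-0.96 ± 0.22, adjusted p = 0.00232).

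**Figure D3:**
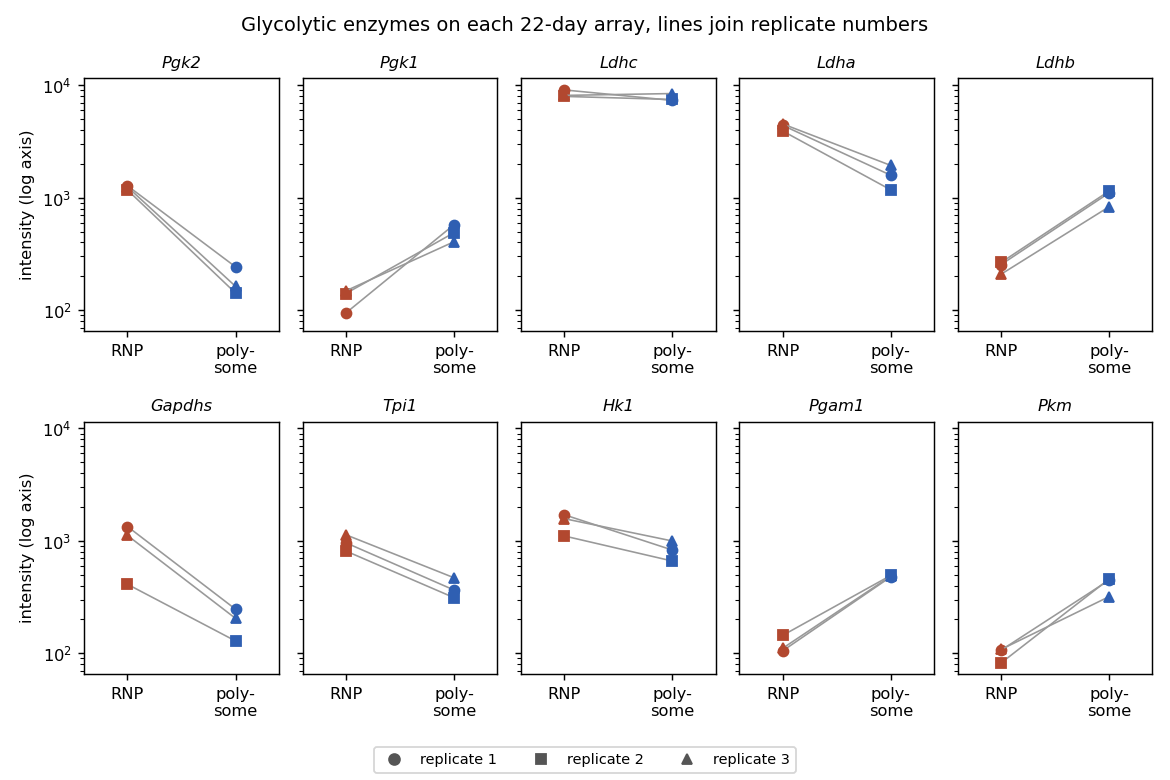
Intensity (y axis, log scale) of 10 glycolytic enzyme genes on the 6 arrays of 22-day testes, RNP in red and polysome in blue, with lines joining the same replicate number. Lines fall for Pgk2, Ldha, Gapdhs, Tpi1 and Hk1, rise for Pgk1, Ldhb, Pgam1 and Pkm, and are nearly level for Ldhc.

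RNA-binding proteins of germ cells, which store, silence or translate messenger RNAs, were more often on polysomes. Of 37 tested genes (51 listed), 16 were higher on polysomes and 5 in RNPs (median -0.59). All genes gave 23.1% on polysomes and 15.2% in RNPs, so the RNP count of this list was near its share. Dazl, a translational activator, was at 348, 465 and 259 in RNPs and 2047, 2403 and 1549 on polysomes (-2.45 ± 0.26 SE, adjusted p = 4.61e-06). The splicing regulators Hnrnpa2b1 (-2.52 ± 0.41) and Celf1 (-1.61 ± 0.28) and the piRNA pathway gene Asz1 (-1.61 ± 0.32) were also on polysomes. In RNPs, Ybx1, a Y-box protein, was at 6738, 6114 and 5040.1 in RNPs and 2614, 2539.6 and 1906 on polysomes (1.34 ± 0.17, adjusted p = 1.51e-05). Papolb, a cytoplasmic poly(A) polymerase of spermatids, differed by 1.5 ± 0.39, Tarbp2, which binds double-stranded RNA, by 1.31 ± 0.24, and Pabpc2, a poly(A)-binding protein, by 1.29 ± 0.30. Ybx2, the germ cell Y-box protein, was at 3488, 4055 and 4591 in RNPs and 2002, 2229 and 4392 on polysomes. Its polysome array of replicate 3 lay among the RNP values, and it was not called (0.57 ± 0.28, adjusted p = 0.112). It passed with replicate pairs as a block (adjusted p = 0.00413), without polysome array 3 (0.92, adjusted p = 0.0107), under median centring (adjusted p = 0.0302) and within-fraction quantile normalization (0.0134). Ddx4, the germ cell helicase, was at 483, 600.2 and 558 in RNPs and 828, 723 and 909 on polysomes (-0.57 ± 0.32, adjusted p = 0.174) and passed with the block (adjusted p = 0.0118) and with only the compared arrays (0.0191).

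Genes of the translation machinery took both sides, where all genes gave 15.2% in RNPs and 23.1% on polysomes. Cytoplasmic ribosomal protein genes carry a pyrimidine tract at their start that ties their translation to growth signals. Of 45 tested (83 listed, of which 37 had no probe set naming that gene alone and 1 was too dim), 15 were higher in RNPs and 2 on polysomes, with a median of 0.32. The counts were 10 and 6 under quantile normalization, 25 and 0 under median centring and 25 and 1 with quantile normalization within each fraction, and 21 and 4 with replicate pairs as a block. Rpl41 was at 7663, 7266 and 7771 in RNPs and 2692, 3410.4 and 1167 on polysomes (1.77 ± 0.37, adjusted p = 0.00113), and the stalk protein Rplp0 at 4413, 4339 and 4632 in RNPs and 1860.5, 2004 and 1768 on polysomes (1.24 ± 0.23, adjusted p = 0.000414). Rpl37 (1.14 ± 0.24) and Rps20 (1.10 ± 0.20) followed. The 2 on polysomes were Rpl6 (-0.65 ± 0.14) and Rps6, whose probe set was dim (7.2, 20.2 and 5.9 in RNPs and 37.2, 44.6 and 60.1 on polysomes). Rpl6 lost its call under median centring (adjusted p = 0.0537). Ribosomal protein genes have many processed copies in the genome, and their probe sets may share signal with these.

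Initiation and elongation factors were called at about the shares of all genes (15.2% in RNPs and 23.1% on polysomes), with 6 of 43 tested (48 listed) higher in RNPs and 10 on polysomes. Their median of 0.09 turned to -0.13 under quantile normalization, and 2 to 5 were called in RNPs when 1 array was left out, with 2 without polysome array 1 or 2 or RNP array 1 or 3. Without RNP array 1, 6 were called on polysomes. With the block the counts were 13 and 15. The helicase Eif4a2 was at 359, 487 and 419.9 in RNPs and 1659, 1413 and 1435 on polysomes (-1.80 ± 0.37, adjusted p = 0.00105), and Eif4a1, its close relative, at 144, 212 and 412 in RNPs and 666, 508 and 1652 on polysomes (-1.76 ± 0.55, adjusted p = 0.0179). Replicate 3 was highest for Eif4a1 in both fractions, and its call ended without polysome array 3 (adjusted p = 0.0991) or RNP array 1 (0.0915). The release factor Etf1 (-1.27 ± 0.26) and Eef1e1 (-1.38 ± 0.30) were on polysomes. The cap-binding homologue Eif4e2 (1.19 ± 0.22), Tpt1 (0.71 ± 0.12) and Eif2b4 (1.01 ± 0.32, adjusted p = 0.0174) were in RNPs. The call of Eif2b4 ended without polysome array 1 or 2 or RNP array 1 or 3 (adjusted p from 0.055 to 0.0691). The elongation factor Eef2 passed narrowly in RNPs (0.83 ± 0.30, adjusted p = 0.0368) and was no longer called without any of 5 single arrays (adjusted p from 0.0506 to 0.131), under quantile normalization (0.219), without the variance trend (0.0504) and without the filter (0.0727). The elongation factor Eef1a1 was at 6367, 6234 and 6749 in RNPs and 4954, 5293 and 4616 on polysomes, all RNP arrays above all polysome arrays, yet missed the threshold (0.38 ± 0.27, adjusted p = 0.279) and passed with the block (adjusted p = 0.00676) and with only the compared arrays (0.00855).

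Nuclear genes of mitochondrial ribosomes and the respiratory chain were called on both sides, where all genes gave 15.2% in RNPs and 23.1% on polysomes. Of 71 tested mitochondrial ribosome genes (74 listed), 15 were higher in RNPs and 13 on polysomes, or 22 and 8 under median centring. The large-subunit genes themselves took both sides, with Mrpl55 at 919.5, 765 and 929 in RNPs and 254, 182 and 179 on polysomes (2.02 ± 0.24) and Mrpl19 at 29.2, 70.8 and 40.2 in RNPs and 219, 277 and 192 on polysomes (-2.02 ± 0.27). Mrpl54 (1.75 ± 0.21), Mrpl42 (1.62 ± 0.28) and Mrpl47 (1.58 ± 0.30) joined the former, and Mrpl3 (-1.45 ± 0.19), Mrpl46 (-1.17 ± 0.22) and Mrpl21 (-1.17 ± 0.28) the latter. Of 71 tested respiratory chain genes (77 listed), 17 and 15 were called. Their median of -0.12 turned to 0.15 under median centring and 0.09 within fractions, and the counts were 10 and 26 under quantile normalization and 23 and 9 under median centring. Without polysome array 1 or RNP array 3, 10 were called in RNPs. Cycs, which encodes somatic cytochrome c, was at 366, 529 and 260.0 in RNPs and 1269.9, 1625 and 1625 on polysomes (-1.97 ± 0.26, adjusted p = 2.23e-05). Ndufa4 (-1.74 ± 0.26), Cox6b1 (-1.33 ± 0.32) and Ndufc2 (-1.25 ± 0.29) were on polysomes, and Uqcrq (1.29 ± 0.23), Atp5e (1.20 ± 0.23), Ndufa3 (0.99 ± 0.24) and Ndufa7 (0.98 ± 0.18) in RNPs. Within complex I, Ndufa3 and Ndufa7 thus differed in side from Ndufc2.

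Called genes of protein quality control lay mainly on polysomes. The proteasome is the protease of ubiquitin-tagged proteins, and 24 of 44 tested genes (46 listed) were higher on polysomes and 3 in RNPs (median -0.73). Psmb3, a subunit of its core, was at 166, 216 and 182 in RNPs and 703, 879.7 and 949 on polysomes (-2.07 ± 0.30 SE, adjusted p = 5.19e-05). The activator subunit Psme1 (-2.23 ± 0.33) and the core subunits Psma7 (-1.88 ± 0.37) and Psmb4 (-1.84 ± 0.24) were on its side. In RNPs were the inhibitor Psmf1 (1092, 544 and 1021 in RNPs and 316, 287 and 376 on polysomes, 1.34 ± 0.26) and the regulatory subunits Psmd8 (1.04 ± 0.21) and Psmc2 (0.78 ± 0.20). Of 33 tested chaperonin and heat shock genes (34 listed), 12 were higher on polysomes and 5 in RNPs (median -0.46), with 7 on polysomes under median centring. Over all genes 23.1% were called on polysomes and 15.2% in RNPs, so the RNP count of the chaperone list was near its share. Hspa8, the constitutive Hsp70, was at 164, 212 and 182 in RNPs and 1280.0, 1410.5 and 874 on polysomes (-2.56 ± 0.41, adjusted p = 0.000129), and the mitochondrial pair Hspd1 (-2.47 ± 0.39) and Hspe1 (-1.58 ± 0.24) shared its side. The cochaperones Bag1 (1.56 ± 0.20), Bag6 (1.35 ± 0.29), Dnajb1 (1.27 ± 0.23) and Dnajb3 (1.17 ± 0.27) were in RNPs. Hspa2, the Hsp70 of spermatocytes and spermatids, was at 1188, 1090.1 and 1871 in RNPs and 2179, 1970.5 and 3393 on polysomes, on the polysome side without overlap (-0.86 ± 0.30, adjusted p = 0.0296). That call ended without polysome array 3 (adjusted p = 0.139) or RNP arrays 1 (0.103) or 2 (0.107), with no filter (0.0527), under median centring (0.16) and under within-fraction quantile normalization (0.0761).

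Genes of the secretory route gave 6 calls in RNPs and 6 on polysomes among 47 tested (51 listed, median 0.14). Over all genes 15.2% were called in RNPs and 23.1% on polysomes, so neither count was above its share. The mean log2 level of the list was 8.49, 8.60 and 8.54 in RNPs and 8.66, 8.79 and 8.07 on polysomes, so polysome array 3 was the low one. Genes higher in RNPs within a replicate number were 23, 18 and 35 of 47. With replicate pairs as a block the counts were 12 and 11, and under median centring 15 and 3. Calls on polysomes numbered 10 without polysome array 3, 3 without polysome array 1 or 2, and 2 without RNP array 1. Rpn2, a subunit of the oligosaccharyl transferase, was one of the genes lowest on polysome array 3, at 774, 853 and 852 in RNPs and 399, 586 and 209.9 on polysomes (1.14 ± 0.34, adjusted p = 0.013) and was no longer called without polysome array 3 (0.75, adjusted p = 0.0843). The signal peptidase subunit Spcs1 (4290.4, 3497 and 3693 in RNPs and 1519, 1464 and 1110.1 on polysomes, 1.49 ± 0.20) and the signal recognition particle gene Srp9 (1.24 ± 0.23) were in RNPs without overlap. The coat proteins Cope (-1.32 ± 0.26), Copb2 (-0.91 ± 0.28) and Copb1 (-0.86 ± 0.30) and Sec23a (-1.27 ± 0.36) were on polysomes, of which Cope kept its call when any 1 array was left out. Sec23a was no longer called without RNP array 1 (adjusted p = 0.0703), Copb2 without that array or polysome arrays 1 or 2 (0.0511 to 0.0698), and Copb1 without polysome arrays 1 or 2 or RNP arrays 1 or 3 (0.0696 to 0.118).

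Called genes of earlier germ cells lay mainly on polysomes, where all genes gave 23.1% on polysomes and 15.2% in RNPs. Of 25 tested meiosis genes (41 listed), 15 were higher on polysomes and 1 in RNPs (median -0.88). Sycp3, of the axis that holds meiotic chromosomes, was at 309, 325 and 214 in RNPs and 828, 824 and 760.2 on polysomes (-1.48 ± 0.25 SE, adjusted p = 0.000204). Tex15 (-2.52 ± 0.47), Smc1b (-1.93 ± 0.49) and Sycp1 (-1.75 ± 0.37) were on the same side, and Psmc3ip, a cofactor of meiotic recombinases, was the call in RNPs (1539.7, 1689.5 and 1475 in RNPs and 661, 822 and 902 on polysomes, 0.98 ± 0.21). Of 21 tested spermatogonia genes (33 listed), 14 were on polysomes and 1 in RNPs (median -0.95). Uchl1, a deubiquitinase of spermatogonia, was at 42.7, 68.1 and 38.7 in RNPs and 489, 562 and 455 on polysomes (-3.01 ± 0.26, adjusted p = 1.12e-06). Dmrt1 (-2.40 ± 0.30), Crabp1 (-2.20 ± 0.31) and Stra8, the retinoic acid target that opens meiosis (-2.11 ± 0.23), were also on polysomes. The one in RNPs was Dmrtb1, a relative of Dmrt1, at 2543, 1875 and 2152 in RNPs and 669, 571 and 607 on polysomes (1.80 ± 0.24, adjusted p = 2.98e-05). Of 46 tested cell cycle and replication genes (50 listed), 28 were on polysomes and 2 in RNPs (median -0.92). The chromatin protein Hmgb2 was at 54.8, 81.4 and 38.7 in RNPs and 791, 710.1 and 904 on polysomes (-3.51 ± 0.29, adjusted p = 9.37e-07), and the replication genes Mcm2 (-2.75 ± 0.42), Mcm3 (-2.29 ± 0.25) and Rpa2 (-2.20 ± 0.27) followed. Those in RNPs were the mitotic kinase Aurka (1931, 1615 and 1802 in RNPs and 893, 695 and 898 on polysomes, 1.10 ± 0.23) and Birc5 (1.06 ± 0.20). Some lists share members, since Stra8 is a polysome call of both the meiosis and the spermatogonia lists. Hspa2 is likewise a polysome call of both the meiosis and the chaperone lists.

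Sertoli cell transcripts had the lowest median of the lists. Sertoli cells nurse the germ cells, and 22 of 28 tested genes (36 listed) were higher on polysomes and 0 in RNPs, with a median of -1.92. The shares over all genes were 23.1% on polysomes and 15.2% in RNPs. With 1 array left out, 19 to 23 were called on polysomes, and 1 gene was called in RNPs under each of the other scalings. Gsta4, a glutathione transferase, was at 17.3, 96.6 and 10.8 in RNPs and 758, 842 and 713 on polysomes, a difference of -4.10 ± 0.45 SE (adjusted p = 5.06e-06). Espn, an actin bundler of Sertoli cell junctions, was at 2.9, 25.3 and 5.5 in RNPs and 314, 515 and 279.5 on polysomes (-3.90 ± 0.37), and Amhr2, the receptor for anti-Müllerian hormone, at 12.1, 13.2 and 9.5 in RNPs and 354, 526 and 199 on polysomes (-3.70 ± 0.35). Most RNP values of these genes were below 20, near the pseudocount, so the fitted differences understate the folds. Ctsl, a secreted protease, was at 62.9, 138 and 70.9 in RNPs and 1017, 1314 and 402 on polysomes (-3.04 ± 0.48), and Clu at 170.2, 244 and 224 in RNPs and 1699, 2749 and 673 on polysomes (-2.72 ± 0.59), in both cases with the lowest polysome value in replicate 3. Sox9, the factor that sets Sertoli fate, was at 34.6, 39.9 and 25.7 in RNPs and 95.9, 102 and 55.1 on polysomes (-1.01 ± 0.24, adjusted p = 0.00309), and Amh at 14.7, 52.8 and 8.4 in RNPs and 33.9, 45.6 and 85.1 on polysomes was not called (-0.88 ± 0.43, adjusted p = 0.12).

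Leydig cells make androgens, and 7 of 13 tested genes (22 listed) were higher on polysomes and 0 in RNPs (median -1.09). For these and the peritubular genes below, the shares over all genes were 23.1% on polysomes and 15.2% in RNPs. Cyp11a1, which opens steroid synthesis, was at 3.6, 30.7 and 16.6 in RNPs and 381, 268 and 226 on polysomes (-3.31 ± 0.48, adjusted p = 5.47e-05). Cyp17a1, a later enzyme of the path, was at 74.8, 111 and 58.7 in RNPs and 830.0, 897 and 186 on polysomes (-2.51 ± 0.54, adjusted p = 0.00158), with the third polysome array again low. Gstm1 (-2.23 ± 0.21) and Hsd3b1 (-1.99 ± 0.34) were on polysomes too. Star, the carrier of cholesterol into mitochondria, was at 169.6, 163 and 98.8 in RNPs and 194, 190.3 and 115 on polysomes on its brightest probe set, which was not called (-0.19 ± 0.27, adjusted p = 0.614). Its other two probe sets were higher on polysomes (-1.48 ± 0.45, adjusted p = 0.0144, and -2.24 ± 0.42, adjusted p = 0.000486). Of 20 tested peritubular and smooth muscle genes (26 listed), 9 were on polysomes and 1 in RNPs (median -0.70). Polysome calls numbered 5 under each other scaling, and without polysome array 1 or 2 or RNP array 3. The myosin light chain Myl9 was at 98.8, 205 and 106 in RNPs and 1039.7, 1414 and 979.8 on polysomes (-2.98 ± 0.34, adjusted p = 6.14e-06), and Tpm1 (-1.80 ± 0.41), Tpm2 (-1.77 ± 0.34) and Tagln (-1.60 ± 0.39) shared its side. Without polysome array 3, or RNP array 2, 11 were called on polysomes. Actg2, the enteric smooth muscle actin, was the one in RNPs, where it was lowest in replicate 2, as were 7 of the 9 sperm chromatin genes (416, 117 and 290.4 in RNPs and 136, 69.2 and 62.4 on polysomes, 1.38 ± 0.34). Whether its probe set also reads a germ cell transcript was not tested.

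Of 18 tested genes of blood, vessels and macrophages (32 listed), 1 was higher in RNPs and 2 on polysomes, or 1 and 4 with replicate pairs as a block. Neither count without the block was above the share of all genes (15.2% in RNPs and 23.1% on polysomes). The list median of -0.04 turned to 0.14 to 0.16 under the other scalings. H2-Ab1, a class II histocompatibility gene, was at 158, 95.8 and 191 in RNPs and 78.0, 40.2 and 76.2 on polysomes (1.02 ± 0.34, adjusted p = 0.0224), and was no longer called without polysome array 2 (0.118) or RNP arrays 1 (0.0735) or 3 (0.106). The macrophage genes Lyz1 (15.6, 33.1 and 17.1 in RNPs and 77.5, 134 and 47.8 on polysomes, -1.39 ± 0.31) and C1qc (-1.05 ± 0.36, adjusted p = 0.03) were on polysomes, and the call of C1qc ended under each other scaling (adjusted p from 0.0667 to 0.0689) and without polysome array 2 (0.155) or RNP array 1 (0.187). Immediate early and stress genes, which can be induced while tissue is handled, gave 4 calls in RNPs and 6 on polysomes of 24 tested (32 listed, median -0.30), near the 15.2% and 23.1% of all genes, and 3 on polysomes without RNP array 3. Ddit3, a stress transcription factor whose translation is held back by upstream reading frames, was at 588, 618 and 795 in RNPs and 136, 147 and 149 on polysomes (2.08 ± 0.25 SE, adjusted p = 9.83e-06). Atf4, controlled in the same way, was at 377, 338 and 289.5 in RNPs and 185, 206 and 165 on polysomes (0.80 ± 0.28, adjusted p = 0.0283), and was no longer called without polysome array 1 (0.0675) or 3 (0.0815) or RNP array 1 (0.1) or 2 (0.0598). Btg1 (1.02 ± 0.21) and Klf4 (1.05 ± 0.28) were in RNPs, and Ddit4 (-1.95 ± 0.34) and Ier2 (-1.21 ± 0.26) on polysomes. Dusp1 and Hmox1, also called on polysomes, were dim (16.6, 5.0 and 2.2 in RNPs and 41.4, 38.2 and 32.1 on polysomes for Dusp1). Dusp1 was no longer called without RNP array 3 (adjusted p = 0.0657) and Hmox1 without that array (0.0999) or polysome array 1 (0.0558) or 2 (0.0621).

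Cytoskeletal genes were also called near the shares of all genes (15.2% in RNPs and 23.1% on polysomes). Of 39 tested (48 listed), 7 were higher in RNPs and 11 on polysomes (median -0.21, or 0.06 under median centring, where 7 were called on polysomes). Without polysome array 2 or RNP array 3, 4 were called in RNPs. Capza3, an actin-capping subunit of spermatids, was at 638, 197 and 537 in RNPs and 86.4, 40.1 and 55.0 on polysomes (2.53 ± 0.42, adjusted p = 0.000186), and the spermatid actin-related gene Actl7a at 936, 253 and 799 in RNPs and 246, 135 and 283 on polysomes (1.38 ± 0.41). Actl7a was no longer called without polysome array 2 (adjusted p = 0.0783) or RNP arrays 1 (0.0884) or 3 (0.072). Dynll2 (1.27 ± 0.29) and Pfn2 (0.87 ± 0.24) were also in RNPs. Tubb5, a general beta-tubulin, was at 197, 218 and 199.5 in RNPs and 1198, 1424 and 954 on polysomes (-2.44 ± 0.27, adjusted p = 5.81e-06), and Tubb3 (-2.15 ± 0.20) and the kinesins Kif5b (-1.78 ± 0.28) and Kif2c (-1.73 ± 0.35) were on polysomes. Actb, the cytoplasmic actin often taken as a control gene, was at 4004, 3578 and 2993 in RNPs and 4822, 5378 and 5504 on polysomes, higher on polysomes (-0.58 ± 0.13, adjusted p = 0.00232) though not under median centring (-0.30, adjusted p = 0.114).

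Among genes with the largest differences and no overlap, several were not on any list. Ptdss2, a phosphatidylserine synthase, was at 333, 328 and 588 in RNPs and 58.6, 9.1 and 6.7 on polysomes (3.60 ± 0.40, adjusted p = 5.02e-06), with the polysome values of replicates 2 and 3 below the pseudocount, which then limits the difference. The other 5 tested probe sets of Ptdss2, brighter in both fractions, differed by 1.27 to 2.11, and all were called in RNPs. Dgcr6 was at 1606, 1349 and 1928 in RNPs and 154, 137 and 258 on polysomes (3.08 ± 0.30), the homeobox gene Hoxa4 at 714, 842 and 1054 in RNPs and 100.2, 112 and 98.5 on polysomes (2.88 ± 0.22) and C8b, a complement component, at 173, 186 and 270.2 in RNPs and 5.6, 6.9 and 29.0 on polysomes (3.01 ± 0.28). Tcte2 (2.93 ± 0.44), the transcription factors Spz1 (2.81 ± 0.42) and Atoh8 (2.76 ± 0.49), the nucleotidase Nt5c1b (2.75 ± 0.37), the protease Prss39 (2.74 ± 0.31), 1700074P13Rik (2.66 ± 0.39) and 1110032A03Rik (2.65 ± 0.33) followed. Replicate 2 was the lowest RNP array for Spz1 (1366, 382 and 830.4 in RNPs and 160.5, 47.7 and 106 on polysomes), whereas Hoxa4 was lowest in replicate 1 and Dgcr6 highest in replicate 3. On polysomes 1 probe set of Sparc, a matrix glycoprotein on the Sertoli list, was at 69.8, 140.2 and 14.0 in RNPs and 1449.7, 2584 and 289 on polysomes (-3.85 ± 0.84, adjusted p = 0.00164), low in replicate 3 in both fractions. The Sertoli list used another probe set of Sparc, with a smaller difference (-1.62 ± 0.37, adjusted p = 0.00223). It was at 135.8, 280.2 and 225.1 in RNPs and 771.8, 1095.0 and 339.3 on polysomes, lowest in replicate 3 on polysomes only. Anxa5, which binds membrane phospholipid, was at 8.5, 6.6 and 6.9 in RNPs and 322, 233 and 151 on polysomes (-3.41 ± 0.27) and the ubiquitin ligase Nedd4 at 3.7, 8.9 and 6.4 in RNPs and 234, 198 and 191 on polysomes (-3.36 ± 0.49). The transcription factor Sox4 (-3.23 ± 0.50), Ptgr1 (-3.28 ± 0.37), the actin regulator Cttn (-3.17 ± 0.44) and the transaldolase Taldo1 (-3.11 ± 0.38) were also there.

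Most called genes of the X chromosome were polysomal. The X is silenced in spermatocytes during meiosis, and many X-linked genes are off in later germ cells. Of 263 tested X-linked genes, 7 were higher in RNPs and 137 higher on polysomes, with a median difference of -0.77. Of 8438 genes on other chromosomes, 1317 and 1873 were called, with a median of -0.07. X-linked genes made up 0.529% of genes called in RNPs, 6.82% of those called on polysomes and 2.22% of those not called. Under the other scalings 20 were called in RNPs and 104 to 106 on polysomes. Calls in RNPs numbered 4 without RNP array 1 or 3, and 12 with replicate pairs as a block. Sertoli and spermatogonial genes are among them, so these counts are not separate from those lists. Cited1, a transcriptional coactivator, was at 72.3, 70.2 and 47.9 in RNPs and 605, 803 and 563 on polysomes (-3.09 ± 0.34) and Rbbp7, a histone-binding protein, at 116, 169 and 197 in RNPs and 1513, 1264 and 866 on polysomes (-2.80 ± 0.34). Maged1 (-2.77 ± 0.40), the testis transcript Tsx (-2.68 ± 0.27), Nr0b1 (-2.59 ± 0.24), Tsc22d3 (-2.55 ± 0.38), Tceal9 (-2.55 ± 0.25) and Hsd17b10 (-2.42 ± 0.31) came next in size.

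The 7 X-linked genes in RNPs included known spermatid genes. Cypt1, a spermatid nuclear protein, was at 912, 249.7 and 629 in RNPs and 148, 32.6 and 50.9 on polysomes (2.75 ± 0.44, adjusted p = 0.00013). Akap4 was at 790.4, 392 and 474 in RNPs and 173, 104 and 152 on polysomes, and Ppp1r2-ps9 at 113, 42.6 and 101 in RNPs and 9.1, 4.5 and 4.1 on polysomes (2.17 ± 0.28). H2ap, an X-linked histone variant gene, was at 214, 36.1 and 200 in RNPs and 46.4, 23.3 and 34.3 on polysomes (1.47 ± 0.40, adjusted p = 0.00724), Asb9 at 341, 134 and 318 in RNPs and 119, 61.1 and 139 on polysomes (1.16 ± 0.31), Asb12 at 62.0, 28.9 and 67.4 in RNPs and 12.9, 19.5 and 36.9 on polysomes (0.82 ± 0.31) and Sh3kbp1 at 69.4, 30.6 and 54.0 in RNPs and 35.7, 4.6 and 9.1 on polysomes (1.14 ± 0.39). The RNP array of replicate 2 was the lowest for each of the 7, and the groups of H2ap, Asb9, Asb12 and Sh3kbp1 overlapped. Cited1, Asb9, Asb12, H2ap and the other X-linked genes of this and the preceding paragraph that no list names were picked by size after their values were seen.

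**Figure D4:**
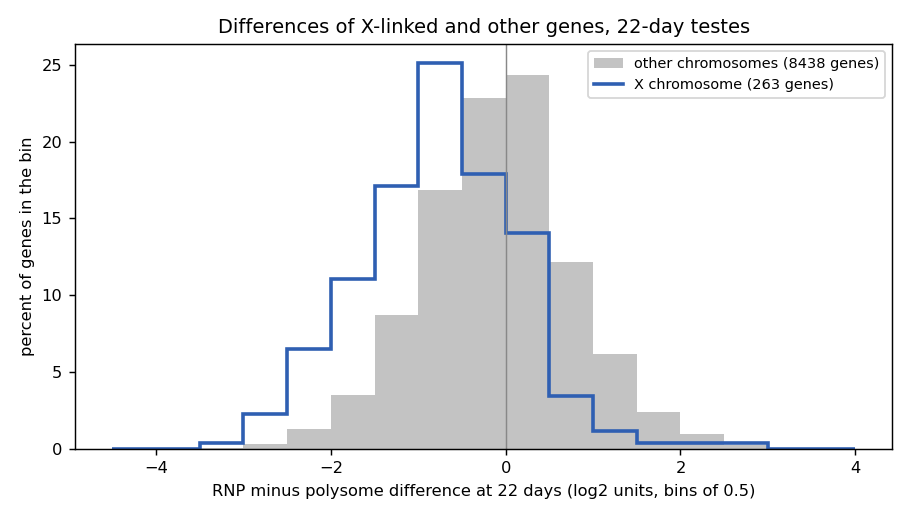
Share of genes (y axis, percent) by RNP minus polysome difference at 22 days (x axis, log2 units, bins of 0.5), for 263 X-linked genes (blue line) and 8438 genes of other chromosomes (grey). The X-linked distribution is shifted to the polysome side, with a median of -0.77 against -0.07.

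Probe sets of 1 gene sometimes took opposite sides. Of 2894 genes with at least 2 tested probe sets that name that gene alone, 847 had at least 2 called, and in 23 of these the calls were in opposite directions, past 2-fold on both sides in 6. Such probe sets can read different transcript ends, and the genome positions of the probes were not used here. For Pnkd 1 probe set was at 734, 587 and 734 in RNPs and 265, 289.9 and 279.6 on polysomes (1.25 ± 0.28) and another at 49.1, 124 and 67.1 in RNPs and 327, 457 and 329 on polysomes (-2.08 ± 0.29). For Clip4, which encodes a linker protein of microtubules, the pair was at 330.1, 112 and 308 in RNPs and 59.3, 27.4 and 40.2 on polysomes (2.11 ± 0.39) and at 23.5, 37.6 and 35.0 in RNPs and 111, 133 and 74.7 on polysomes (-1.34 ± 0.28). The ubiquitin ligase Cbl gave 1.23 ± 0.26 and -1.73 ± 0.27, 4833420G17Rik 1.27 ± 0.27 and -1.53 ± 0.44, and Tln1, a linker of integrins to actin, 1.62 ± 0.27 and -0.94 ± 0.29. Cebpd (1.16 ± 0.40 and -1.24 ± 0.40), Sypl (1.16 ± 0.34 and -1.14 ± 0.38) and Crk (0.99 ± 0.22 and -1.30 ± 0.48) completed the 8 with the largest smaller difference. Both calls were kept for Clip4, Pnkd and Cbl when any 1 array was left out, whereas each of the other 5 lost at least 1 of its calls without some single array.

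The 22-day difference was then set against that of the younger and the older testes. From 17 to 22 days, 0 of 14066 probe sets (0%) changed in the limma fit without the block, with 817 at an unadjusted p under 0.05 and a lowest adjusted p of 0.176. With replicate pairs as a block 205 changed (1.46%), 148 toward RNPs and 57 toward polysomes. Without RNP array 2 of 22 days, and without the block, the count was 91. From 22 days to adult 16 probe sets changed (0.114%), 5 toward RNPs and 11 toward polysomes, and with the block 130 (0.924%), 27 and 103. The medians of the sperm chromatin genes were 0.05 at 17 days, 2.10 at 22 days and 0.30 in adults. At 17 days 8 of these 9 genes averaged below 51.6 in both fractions and 4 below the pseudocount, which holds their difference near 0, so the 17-day median does not measure their side. Those of the sperm tail genes were 0.34, 1.14 and 0.42, of the acrosome genes 1.09, 0.77 and 0.40, and of the Sertoli genes -1.04, -1.92 and -1.80. At 17 days 10 of the 27 sperm tail genes and 4 of the 20 acrosome genes also averaged below 51.6 in both fractions. Differences between these list medians were not tested.

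From 17 to 22 days the named changes were called with the block only, 8 toward RNPs and 8 toward polysomes. Those toward RNPs included Odf1, Tnp1 and Cypt1, whose transcripts are spermatid-specific. Odf1 averaged 6.0 in RNPs and 2.7 on polysomes at 17 days, below the pseudocount in both fractions, so its side could not be measured at that age. Nt5c1b averaged 14.9 in RNPs and 18.3 on polysomes, St6galnac2, a sialyltransferase, 2.5 in RNPs and 2.4 on polysomes and Prkcq, a protein kinase C, 5.1 in RNPs and 4.8 on polysomes at 17 days. These 3 were thus below 20 in both fractions at 17 days. At 22 days St6galnac2 was at 738, 268 and 603 in RNPs and 109, 32.5 and 98.4 on polysomes and Prkcq at 320.5, 121 and 340.5 in RNPs and 76.2, 8.3 and 18.9 on polysomes. Tnp1 and Cypt1 were likewise at most 8.1 on average at 17 days. Ica1 and Cdc42ep5, by contrast, were detected on 17-day polysomes, at an average of 6.8 in RNPs and 75.7 on polysomes for Ica1. At 22 days Ica1 was at 197, 43.1 and 117 in RNPs and 155, 14.1 and 52.4 on polysomes. Toward polysomes, Bscl2, the lipid droplet protein seipin, averaged 1214 in RNPs and 80.9 on polysomes at 17 days and was at 1799.8, 1448 and 1913 in RNPs and 569.7, 566 and 363 on polysomes at 22 days, still higher in RNPs (1.77 ± 0.50). Nop56, a nucleolar protein, averaged 126 in RNPs and 171 on polysomes at 17 days and was at 14.6, 14.3 and 14.6 in RNPs and 135, 205 and 121 on polysomes at 22 days. Foxo3 averaged 137 in RNPs and 133 on polysomes and was then at 22.1, 89.3 and 38.2 in RNPs and 130.5, 225 and 282 on polysomes, and Agfg2, a relative of a nucleoporin, at 14.2, 71.6 and 14.6 in RNPs and 237, 282 and 259 on polysomes. Gabpb1, Cox8a, Nkain1 and Tesc completed this group. Several of these changes rested on 1 probe set. Cox8a was taken from its dimmer probe set (-1.80), while the brighter one was at 453, 463 and 474 in RNPs and 279.6, 249 and 425 on polysomes at 22 days and its difference shifted by 0.10. On a second probe set the shift over the same interval was 0.84 for Nop56, of the opposite sign, -0.07 for Foxo3, -0.28 for Gabpb1, -0.35 for Agfg2 and -0.89 for Bscl2. Among the genes toward RNPs it was 0.27 for Tnp1, 1.08 for Ica1 and -0.81 for Cdc42ep5, the last with the opposite sign. Of the group toward polysomes, Tesc was at 15.4, 16.8 and 5.1 in RNPs and 4.5, 23.7 and 5.5 on polysomes at 22 days, near the pseudocount.

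From 22 days to adult, 3 genes named in the fit without the block moved toward RNPs and 8 toward polysomes. Cdkn1c, a cell cycle inhibitor, was at 34.4, 27.4 and 6.4 in RNPs and 73.5, 71.5 and 58.2 on polysomes at 22 days and averaged 551 in RNPs and 103 on polysomes in adults, with the higher value in RNPs. Pkm averaged 572 in RNPs and 513 on polysomes in adults and Nqo2, a quinone reductase, 376 in RNPs and 148 on polysomes. Dbil5, a germ cell acyl-CoA-binding peptide, was at 1510.2, 994 and 1379.8 in RNPs and 289, 172 and 288 on polysomes at 22 days (2.32 ± 0.24, adjusted p = 3.42e-06) and averaged 3428 in RNPs and 3110.0 on polysomes in adults. A second, dim probe set of Dbil5 shifted by 0.45 toward RNPs. The other 7, Agt, Ptgds, Klk1b21, Klk1b24, Klk1b27, Apoc1 and Lcn2, encode secreted proteins and averaged at most 52.2 in either fraction at 22 days. Ptgds, a prostaglandin synthase, was at 17.7, 24.9 and 35.3 in RNPs and 28.4, 44.1 and 26.7 on polysomes at 22 days and averaged 69.6 in RNPs and 719 on polysomes in adults. For these 7 both fractions were dim at 22 days, so the pseudocount shrinks their 22-day difference. With a pseudocount of 1 the calls of Agt, Klk1b21, Klk1b24, Klk1b27 and Lcn2 ended (adjusted p from 0.0688 to 0.987). A second probe set of Ptgds shifted by -2.61. With the block, Odf1 and St6galnac2 changed toward polysomes in adults, where they averaged 4512 in RNPs and 3576 on polysomes and 2262 in RNPs and 2245 on polysomes.

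**Figure D5:**
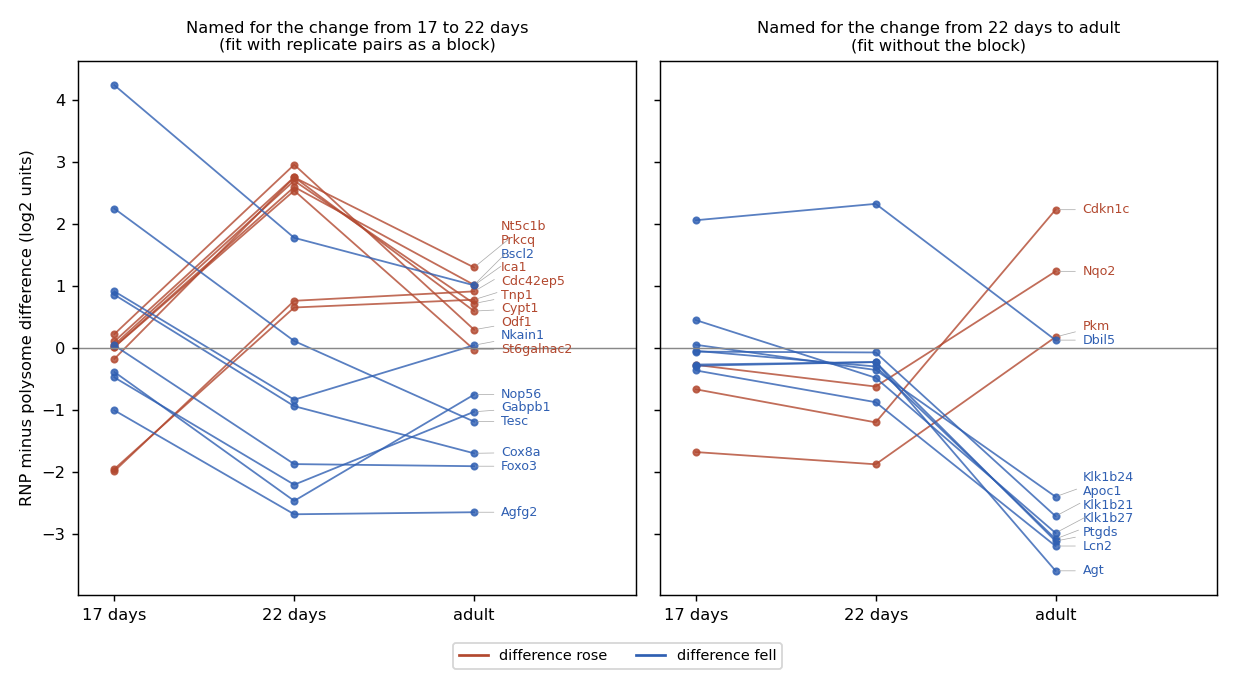
RNP minus polysome difference (y axis, log2 units) at 17 days, 22 days and in adults (x axis) for genes named for a change from 17 to 22 days (left, 16 genes, fit with the block) and from 22 days to adult (right, 11 genes, fit without the block). Red lines are genes whose difference rose over that interval and blue lines those whose difference fell. Odf1, Tnp1, Cypt1 and St6galnac2, below the pseudocount at 17 days, lie near 0 there, above 2.5 at 22 days and below 1 in adults.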

How the data were processed

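Whole-testis RNA of the RNP and polysome fractions was hybridised to an Affymetrix mouse array with 22690 probe sets, 64 of them controls, which were left out. The authors deposited linear intensities of the MAS5 algorithm, per the submitters' processing notes; the values are whole-array scaled, since the trimmed means of the arrays (2% off each end) ran from 150.04 to 150.07. Array medians at 22 days were 45.0 to 58.9, and 3 arrays per group limit the precision. Intensities were taken as log2(value + 15.4), the 25th percentile of all values, and probe sets above 51.6 (the 50th) on at least 3 of 18 arrays were tested. limma 3.58.1 in R 4.3.3 (lmFit, eBayes with a variance trend, Benjamini-Hochberg over all 14066 probe sets) was fitted to 6 groups of 3, with 12 residual degrees of freedom. The changes with age are differences of the RNP minus polysome difference in the same fit. Symbols came from the platform annotation: 20393 probe sets had 1 symbol, 691 several and 1606 none, and 20364 were found by Entrez ID in RefSeq (GRCm38.p6). Lists used for each gene the probe set with the highest mean.

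Deviations from the group means correlated between fractions of the same replicate number at 0.198, 0.345 and 0.298 at 22 days, 0.311 to 0.566 at 17 days and 0.462 to 0.586 in adults, so same-numbered fractions were treated as pairs and a fit with the pair as a block was run beside the fit without it. The labels do not state this pairing. At 17 days RNP array 1 also correlated with polysome array 3 (0.346), and RNP array 3 with polysome array 1 (0.265). Numbers 1 and 3 were thus not told apart at that age, and the block-only changes from 17 to 22 days rest on the pairing. All other unlike-numbered correlations were negative. Deviations from a mean of 3 arrays sum to 0, so positive same-number values push the others below 0. The negative values are thus no separate evidence for the pairing. Genes named are fixed ones (Prm1 and others), the 15 largest non-overlapping differences on each side, the 4 largest called members of a list on each side, and the 8 largest changes on each side between ages with separated pairs. Opposite probe sets, second probe sets of genes that changed with age and X-linked genes were added after their values were seen. Members, lists and alternatives were chosen with earlier results of these data known. The alternatives were the block, other pseudocounts, filters and scalings, no variance trend, only the compared arrays and leaving out arrays. The limma script was tested on simulated data. Sequences were not used here.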

Additional observations from a re-analysis of the deposited data

Results flagged for a closer look

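Genes whose RNP minus polysome difference changed with age are given here by the size of that change on the log2 scale, tested in the limma fit as a difference of differences. From 22 days to adult, in the fit without the block, the change was 3.43 for Cdkn1c, 2.05 for Pkm and 1.86 for Nqo2, toward RNPs. Toward polysomes it was -3.37 for Agt, -2.88 for Ptgds, -2.78 for Klk1b27, -2.64 for Apoc1, -2.50 for Klk1b21, -2.32 for Lcn2, -2.20 for Dbil5 and -2.04 for Klk1b24. The 3 pair differences of one age lay outside those of the other for each of these 11 genes. The calls of Agt, Cdkn1c and Ptgds were kept without each of the 6 22-day arrays in turn, and the other 8 were lost without at least 1 of them. With a pseudocount of 1 the calls of Agt (adjusted p = 0.207), Klk1b27 (0.702), Klk1b21 (0.119), Klk1b24 (0.0688) and Lcn2 (0.987, with a change of -0.96) ended. That of Agt also ended without both 22-day arrays of number 1 (0.0942) or 3 (0.112), and those of Cdkn1c and Ptgds without those of number 3 (0.0639 each).

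Further genes passed with replicate pairs as a block only. From 17 to 22 days the change toward RNPs was 2.93 for Nt5c1b, 2.75 for Ica1, 2.73 for Odf1, 2.65 for Cypt1 and also 2.65 for Tnp1, 2.60 for Cdc42ep5, 2.58 for Prkcq and 2.52 for St6galnac2. Toward polysomes it was -2.46 for Bscl2, -2.14 for Tesc, -2.08 for Nop56, -1.91 for Foxo3, -1.80 for Cox8a, -1.75 for Nkain1, -1.73 for Gabpb1 and -1.68 for Agfg2. From 22 days to adult it was 1.88 for Epb41l3, 1.79 for Tnni3, 1.72 for Ddx10, 1.71 for Nop56 and 1.68 for Gm34703, and -2.66 for Odf1, -2.56 for St6galnac2 and -2.33 for Ptdss2. Nop56, Odf1 and St6galnac2 are thus in both intervals with opposite signs, which share the 22-day arrays. A second probe set of Nop56 moved the other way in each interval, by 0.84 from 17 to 22 days and -0.73 from 22 days to adult. For Cox8a, Nop56, Ptdss2 and Dbil5 other tested probe sets of the gene shifted by at most 0.84 in size over the same interval.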

How the results depend on the processing

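The counts of 22-day calls moved when arrays were left out, and also with the scaling, the filter and the block. Calls in either direction (5310) were 2761 without both 22-day arrays of number 1 and 3500 without those of number 3, and 3874 to 5122 without 1 array. Calls in RNPs (1955) were 1083 and 1216 without those pairs, 1413 to 1796 without 1 array, and 2970 under median centring. Calls on polysomes (3355) were 1678 without the pair of number 1, 2447 to 3326 without 1 array and 2181 with a filter at the 75th percentile. With replicate pairs as a block they were 2827 and 4544. Changes from 17 to 22 days (0) were 205 with the block, 1 with only the compared arrays, 1 with the pseudocount at the 50th percentile, 34 without the pair of number 2, and 0 to 91 without 1 array. Changes from 22 days to adult (16) were 130 with the block, 7 with only the compared arrays, 25 with no filter, 30 under quantile normalization, 5 and 0 without the pairs of number 1 and 3, and 5 to 20 without 1 array (8 without polysome array 2, 5 without RNP array 3). The cause was not tested, apart from the fewer arrays or probe sets that some alternatives use.

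Of 185 named probe sets called at 22 days, 143 were called the same way under every alternative that tested them and 0 turned direction while called. Values that turned sign belong to genes that were not called. Ldhc was at 0.0000 under quantile normalization, Crem at 0.0376 under quantile normalization and 0.0031 with it within each fraction, and Sod1 at 0.0431 under median centring and between -0.4330 and 0.0151 without 1 array (0.0151 without RNP array 2). Beyond the lists and genes given with their blocked values in the report, the block ended 0 of the 185 calls. Chosen after the data were seen were leaving out both arrays of a number, scaling both fractions to a common median after quantile normalization within each, and the counts of X-linked genes. Dim genes, with values near 15.4, have differences that the pseudocount shrinks.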
